A study of Mus musculus with 68 samples.

Results

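The uterine response to insulin-like growth factor 1 (IGF1) was examined 24 h after treatment in mice whose uterus lacks most of its oestrogen receptor alpha, encoded by Esr1. Of the series' 68 arrays, 6 make this comparison. They are the 3 arrays of ERaUtcKO uterus labelled IGF1 24 h and the 3 of ERaUtcKO uterus labelled vehicle, chosen by genotype, agent and time in the labels. Every mouse was on C57Bl6 and had been ovariectomized, so that the main source of oestradiol was removed in all groups. ERaUtcKO mice carry the floxed alleles Esr1f/f with PgrCre+. Cre is thus made where the progesterone receptor gene is expressed, and cells that never express it keep Esr1. Vehicle was 100 ul of saline given into the peritoneum, and the uterus was taken 24 h later. The protocol text describes 2 ways of giving IGF1, a single injection of 50 ug and an osmotic pump filled at 0.5 mg/ml and worn for 3 days. It does not say which mice had which, so the route behind each array is not known here.

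Values from other groups are set beside this comparison. Within the same experiment these are wild-type littermates under vehicle (3 arrays) and 24 h after IGF1 (3 arrays), ERaUtcKO mice 2 h after IGF1 (3 arrays), and ERaUtcKO mice 24 h after 250 ng of oestradiol, written E2 (3 arrays). From a separate experiment they are Ex3aERKO mice, which are Esr1-null in every cell, and their wild-type littermates. Each of these genotypes was taken under vehicle (2 arrays) and 24 h after IGF1 (3 arrays). The word littermates alone means those of ERaUtcKO. The vehicle groups were all taken at 24 h.

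IGF1 binds the IGF1 receptor, a tyrosine kinase that phosphorylates the insulin receptor substrates and so switches on phosphoinositide 3-kinase with AKT and, in parallel, the RAS and ERK cascade. AKT keeps FOXO transcription factors out of the nucleus, which lowers their catabolic target genes, and through mTOR it favours protein and lipid synthesis. In the uterus, oestradiol acting on ERα makes stromal cells produce IGF1, and IGF1 drives division of the epithelium. Whether that response needs ERα is the question named in the title of the series.

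The 6 arrays gave log2 intensities for 30142 genes, each read from 1 probe set, and "difference" below means a difference of group means in log2 intensity with its standard error (SE). A gene is called, and said to have risen or fallen, at an adjusted p under 0.05 in limma (Benjamini-Hochberg over all genes). Values of single arrays are given in the order of the replicate numbers 1, 2 and 3. The lowest correlation between arrays was 0.9935 within vehicle and 0.9915 within IGF1, and the highest between the groups was 0.9826. Nothing in the labels says that each array came from a separate animal, so the p-values measure the spread between these samples, which may be technical. Markers of the layers of the uterus were read for detection only. In every vehicle array the epithelial Krt19, the stromal Hoxa11 and the smooth muscle Actg2 lay above 5.89, the 95th percentile of the antigenomic control probe sets, with lowest values of 10.13, 9.80 and 13.00. The median of all genes on these arrays (6.71, 6.72 and 6.73) was above that level too, so passing it does not identify the tissue.

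Esr1 was read first because it checks the genotype labels. Its log2 intensities were 11.09, 11.10 and 10.86 in ERaUtcKO vehicle arrays and 12.17, 12.25 and 12.24 in littermate vehicle arrays. All ERaUtcKO arrays lay below all littermate arrays, with a difference of -1.21 ± 0.11 (SE, adjusted p = 3.66e-07). Whether the probe set lies inside the deleted exon is unknown here. After IGF1, Esr1 read 10.60, 10.67 and 10.34 in the knockout, below every vehicle array, a fall of 0.48 ± 0.11 (SE, adjusted p = 0.00141). In littermates the difference was 0.00 (adjusted p = 0.984), and the difference between the genotypes' responses did not pass the test (-0.48, adjusted p = 0.264). In whole uterus, fewer cells of a type and less RNA per cell cannot be told apart, here and in every result below.

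At 24 h, IGF1 had moved a large share of the genes measured in the knockout uterus. Of 30142 genes, 5080 rose (16.9%) and 4685 fell (15.5%), together 32.4%. Changes of at least 2-fold were found for 1722 genes (5.71%), of which 1150 rose and 572 fell. Among called genes 52% were higher as deposited, 65.2% after each array was centred on its median, and 50.9% after quantile normalization. The median difference over all genes was -0.05.

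The largest rise among named protein-coding genes was that of Igfbp5. This gene, which encodes a binding protein that holds IGF1 in the matrix, read 11.74, 11.88 and 11.70 under vehicle and 16.10, 15.99 and 15.32 after IGF1. The groups lay far apart, with a difference of 4.03 ± 0.30 (SE, 16.4-fold, adjusted p = 1.49e-09). Lgals1, the gene of the lectin galectin-1, read 13.66, 14.63 and 14.03 under vehicle and 17.74, 17.69 and 17.85 after IGF1, a rise of 3.66 ± 0.33 (SE, adjusted p = 1.85e-08). Tnnt2, which encodes cardiac troponin T, read 11.34, 11.97 and 11.82 against 15.70, 15.39 and 14.85, a rise of 3.61 ± 0.27 (SE, adjusted p = 1.9e-09). For both genes every IGF1 array was above every vehicle array. The 15 largest rises and 15 largest falls were chosen among genes whose groups did not overlap, so this separation was set by the choice.

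Vcan, the large matrix proteoglycan versican, read 8.16, 8.33 and 8.34 under vehicle and 11.11, 11.75 and 11.38 after IGF1, a rise of 3.13 ± 0.21 (SE, adjusted p = 4.9e-10). Cd248, a surface protein of stromal fibroblasts and pericytes also called endosialin, read 8.27, 8.64 and 8.57 against 11.76, 11.43 and 11.21, a rise of 2.97 ± 0.27. Timp1, an inhibitor of matrix metalloproteinases, rose by 2.74 ± 0.32, and Lrp2, the endocytic receptor megalin, by 3.09 ± 0.31. Genes of mitochondrial and nuclear traffic were also among the 15 largest rises of named protein-coding genes. These were Slc25a5, the adenine nucleotide carrier of the inner mitochondrial membrane (3.24 ± 0.28), Cs, the citrate synthase gene (2.71 ± 0.21), and Kpna2, a nuclear import receptor (2.71 ± 0.24). The other rises in this set were Ppp1r14b (3.13 ± 0.44), a phosphatase inhibitor, Nme1 (2.81 ± 0.26), a nucleoside diphosphate kinase, Ppa1 (2.79 ± 0.26), a pyrophosphatase, Slc35b1 (2.74 ± 0.22), a carrier of the endoplasmic reticulum, and Tbcb (2.67 ± 0.31), a tubulin folding cofactor.

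The largest fall was that of Hpgds, the haematopoietic prostaglandin D synthase. It read 12.33, 11.87 and 12.82 under vehicle and 7.95, 7.67 and 7.30 after IGF1. Each IGF1 array lay more than 3 log2 units below each vehicle array, and the difference was -4.70 ± 0.29 (SE, 26.0-fold lower, adjusted p = 1.54e-10). Inmt, an amine N-methyltransferase, read 13.58, 14.19 and 13.19 against 9.47, 9.57 and 8.75, a fall of 4.39 ± 0.50 (SE, adjusted p = 4.76e-07). Lepr, the leptin receptor, read 13.46, 13.37 and 13.03 against 9.97, 10.69 and 9.77, a fall of 3.14 ± 0.19 (SE, adjusted p = 1.4e-10). The groups did not overlap for any of these genes, as the choice of the largest falls required. Further falls were those of Galnt15, an enzyme of O-linked glycosylation (-3.32 ± 0.25), Coch, the matrix protein cochlin (-3.14 ± 0.27), Abca6, a lipid transporter (-2.65 ± 0.22), Ecm2, a matrix protein (-2.52 ± 0.18), and Pamr1 (-2.51 ± 0.30). Speer4e (-3.90 ± 0.23), Speer4c (-3.53) and Speer4d (-3.33) belong to a family of near-identical genes, so which member gave these signals is uncertain.

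The remaining 4 of the 15 largest falls were liver transcripts. Alb, the serum albumin gene, read 10.99, 15.07 and 15.27 under vehicle and 10.10, 8.50 and 9.03 after IGF1. Vehicle replicates 2 and 3 stood some 4 log2 units above vehicle replicate 1, the vehicle array nearest the IGF1 arrays. The fall was 4.56 ± 1.32 (SE, adjusted p = 0.00984), and it lost its call without vehicle replicate 2 (-3.92, adjusted p = 0.0517) or vehicle replicate 3 (-3.82, adjusted p = 0.0566). Apoa2, an apolipoprotein, fell by 4.44 ± 1.32 (SE, adjusted p = 0.0113) and likewise lost its call without either array (adjusted p = 0.0519 and 0.0711). Fabp1 (-4.08 ± 1.40, adjusted p = 0.0287) and Serpina1c (-2.91 ± 0.97, adjusted p = 0.0242), a fatty acid carrier and a protease inhibitor of liver, lost theirs without either of those vehicle arrays or without IGF1 replicate 2 or 3, with adjusted p from 0.0537 to 0.148. Of 12 liver transcripts measured, 7 fell and none rose (15.5% of all genes fell). The median was -2.05, and 0 were called without vehicle replicate 2 or without vehicle replicate 3. What part liver RNA in some vehicle arrays had in other results was not tested.

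**Figure D1:**
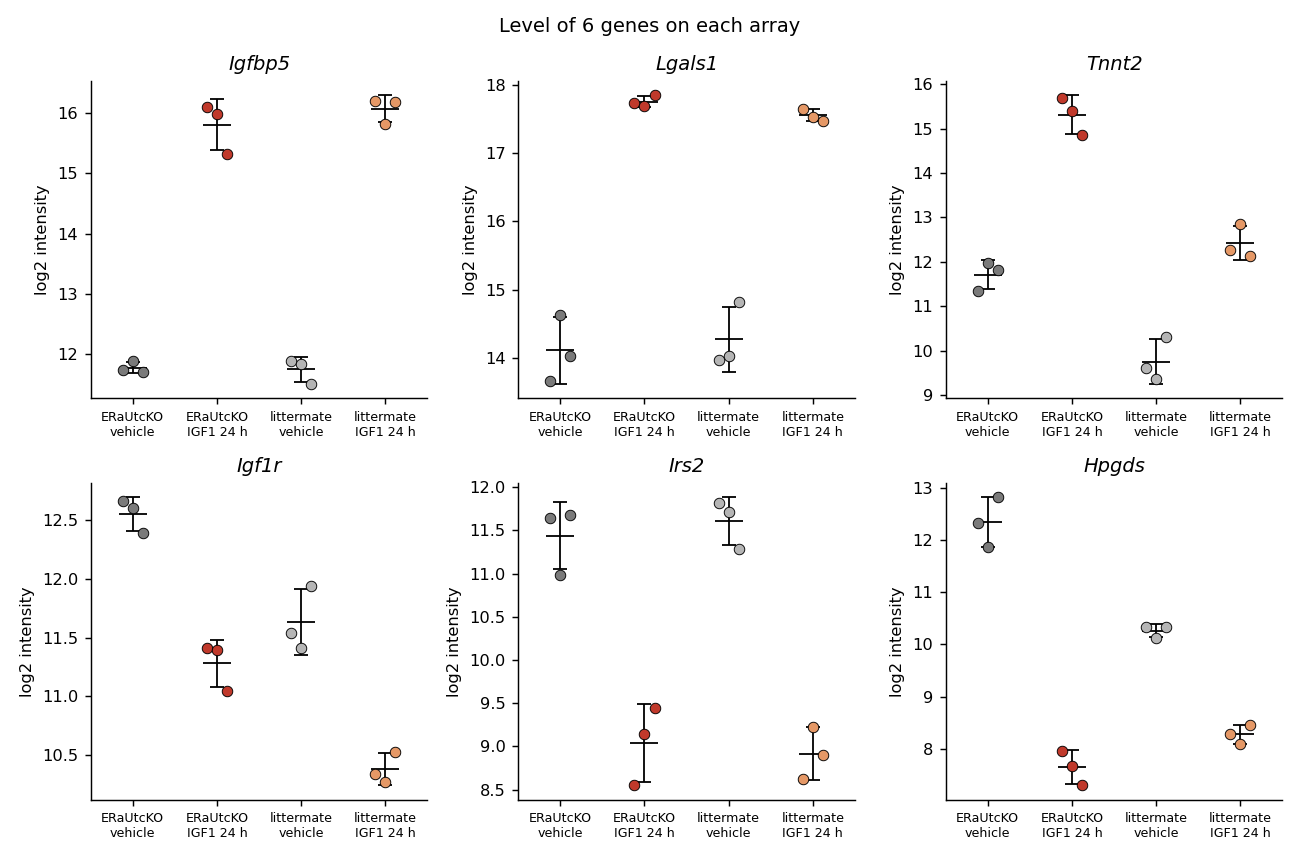
Log2 intensity (vertical axis) of Igfbp5, Lgals1, Tnnt2, Igf1r, Irs2 and Hpgds on each array of ERaUtcKO and littermate uterus under vehicle and 24 h after IGF1, with points for arrays and bars for the mean ± SD of 3. In ERaUtcKO the IGF1 arrays of Igfbp5, Lgals1 and Tnnt2 lie above all vehicle arrays and those of Igf1r, Irs2 and Hpgds below. Igfbp5, Lgals1, Tnnt2 and Hpgds were chosen among genes without overlap in ERaUtcKO. Hpgds starts higher in ERaUtcKO (11.87 to 12.82) than in littermates (10.12 to 10.34).

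The receptor end of the IGF1 pathway was lower at 24 h. Igf1r, the receptor itself, read 12.66, 12.60 and 12.39 under vehicle and 11.41, 11.39 and 11.05 after IGF1, a fall of 1.27 ± 0.14 (SE, adjusted p = 3.15e-07). Irs2, the substrate that couples it to phosphoinositide 3-kinase, read 11.64, 10.99 and 11.68 against 8.55, 9.14 and 9.44, a fall of 2.40 ± 0.23 (SE, adjusted p = 5.52e-08). The IGF1 arrays of both genes lay below all vehicle arrays. Irs1, the other main substrate, differed by -0.04 ± 0.22 (adjusted p = 0.924), and Igf1 itself by -0.01 ± 0.20 (adjusted p = 0.975).

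Among 22 measured genes of IGF ligands, receptors and signalling adaptors, 7 rose and 8 fell, against 16.9% and 15.5% of all genes, and the median was -0.09. The rises were led by Pik3r3, a regulatory subunit of phosphoinositide 3-kinase (1.5 ± 0.15), and Akt1 (1.02 ± 0.14). Besides Irs2 and Igf1r, the falls included Grb14 (-1.25 ± 0.20), an adaptor that inhibits the insulin receptor, Pik3ip1 (-1.20 ± 0.10), an inhibitor of phosphoinositide 3-kinase, and Deptor (-1.04 ± 0.15), an inhibitor of mTOR. Grb10, a related adaptor that restrains the receptor, rose by 0.78 ± 0.11.

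The IGF binding proteins split. Igfbp5 rose as above, and Igfbp4, which sequesters IGF1 until it is cleaved, read 10.19, 10.60 and 10.29 under vehicle and 12.45, 12.50 and 12.38 after IGF1, a rise of 2.08 ± 0.17 (SE, adjusted p = 5.02e-09). Igfbp3, the main carrier in serum, read 14.95, 15.07 and 15.11 against 14.30, 13.56 and 13.18, a fall of 1.36 ± 0.22 (SE, adjusted p = 3.03e-05). For both genes the groups did not overlap. Pappa, the protease that cleaves IGFBP4, fell by 1.28 ± 0.19. Of the 12 measured binding proteins, their proteases and inhibitors, 3 rose and 3 fell, against 16.9% and 15.5% of all genes (median -0.14).

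FOXO factors and their targets were mostly lower. Of 26 measured, 18 fell and 1 rose, against 15.5% and 16.9% of all genes. The median was -0.57 against -0.05 over all genes. Fbxo32, a muscle ubiquitin ligase known as atrogin-1, read 14.56, 14.51 and 14.12 under vehicle and 12.48, 12.89 and 11.64 after IGF1, a fall of 2.05 ± 0.30 (SE, adjusted p = 1.22e-05). Klhl24 fell by 1.99 ± 0.27, Txnip, which restrains glucose uptake, by 1.68 ± 0.29, and Pdk4, which blocks pyruvate oxidation, by 1.64 ± 0.35. Sod2, a mitochondrial superoxide dismutase, was the 1 that rose (0.34 ± 0.08, adjusted p = 0.00155).

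Feedback inhibitors and targets of ERK and the immediate-early genes come next. Of 15 of the former, 2 rose, against 16.9% of all genes, Spry4 (1.07 ± 0.24) and Dusp6 (0.69 ± 0.19), and 2 fell, against 15.5% of all genes, Spry1 (-0.46) and Spred1 (-0.38, or -0.66 after quantile normalization). All 4 encode feedback inhibitors of the cascade. Of 21 immediate-early transcription factors 1 rose and 2 fell, with a median of 0.08, and 1 call in all without vehicle replicate 2 or without IGF1 replicate 1. Myc was the 1 that rose (0.42, adjusted p = 0.0243), a call lost without vehicle replicate 1 or 2 or without IGF1 replicate 1 or 3, or after quantile normalization (adjusted p = 0.0752 to 0.182). Jun fell by 0.61, a call lost without vehicle replicate 2 (adjusted p = 0.0551) or IGF1 replicate 1 (adjusted p = 0.0855), and Klf6 fell by 0.58 ± 0.13. Egr1 read 7.30, 7.48 and 7.36 under vehicle and 7.76, 7.0 and 8.12 after IGF1, with overlapping groups (0.25 ± 0.35, adjusted p = 0.641).

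**Figure D2:**
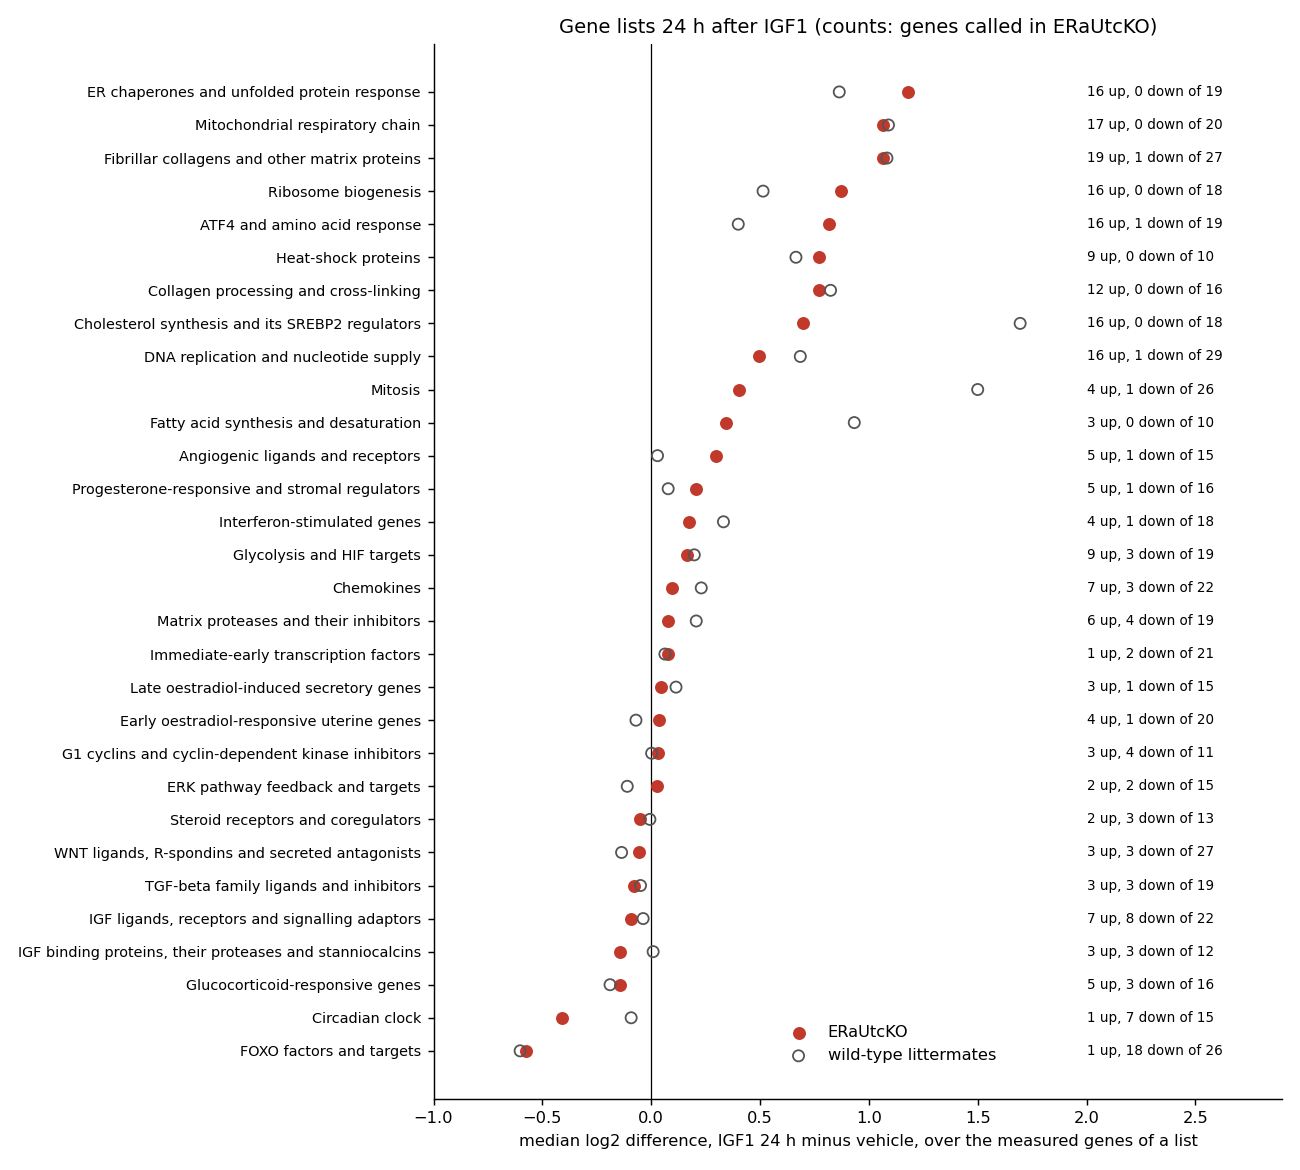
Median difference in log2 intensity, IGF1 24 h minus vehicle (horizontal axis), of 30 pathway and hormone lists in ERaUtcKO (filled) and littermate (open) uterus, with the number of members that rose and fell of those measured at the right. Endoplasmic reticulum chaperones (1.18), the respiratory chain (1.07) and matrix proteins (1.07) have the highest medians in ERaUtcKO, FOXO targets the lowest (-0.57), and mitosis and cholesterol synthesis show the widest gaps between the genotypes.

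Genes of cholesterol synthesis and of its SREBP2 regulators rose together. Of 18 measured, 16 rose, against 16.9% of all genes, and none fell, with a median of 0.70. A search of their promoters for short motifs followed. RefSeq promoters (mouse GRCm38.p6, the 250 bases before each start) were at hand for 14 of the 18. All 14 held a CCAAT box, the letters CCAAT on either strand, which 38.5% of the promoters of all measured genes held. It was also in 15 of the 22 promoters at hand of the FOXO target list, most of whose called members fell, and in 15 of 25 of the replication list. For the sterol regulatory element a single consensus spelling was searched, with no mismatch allowed. That spelling was in 0 of the 14 and in 0.217% of all. Variant spellings were not counted, so whether these promoters hold the element was not tested. A match of letters is a description and not a site of binding. The last 150 bases before the start are shown for 3 of the largest rises, for Idi1 at chr13:8885456-8885605 and Hmgcs1 at chr13:119690201-119690350 on the plus strand and for Cyp51 at chr5:4104698-4104847 on the minus strand. Capitals mark CCAAT, or ATTGG where it lies on the other strand.
Idi1: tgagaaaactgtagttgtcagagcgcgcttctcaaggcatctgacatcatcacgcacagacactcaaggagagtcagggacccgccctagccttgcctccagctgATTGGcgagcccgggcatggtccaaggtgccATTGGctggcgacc
Hmgcs1: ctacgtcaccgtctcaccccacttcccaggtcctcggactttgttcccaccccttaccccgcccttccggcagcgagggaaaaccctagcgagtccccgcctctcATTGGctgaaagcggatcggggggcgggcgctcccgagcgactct
Cyp51: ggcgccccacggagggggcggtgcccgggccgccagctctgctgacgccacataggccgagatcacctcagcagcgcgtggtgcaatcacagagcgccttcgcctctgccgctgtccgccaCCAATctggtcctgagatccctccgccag

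Idi1, the isopentenyl diphosphate isomerase, read 6.32, 6.37 and 7.05 under vehicle and 8.71, 8.82 and 9.52 after IGF1, a rise of 2.44 ± 0.29 (SE, 5.42-fold, adjusted p = 6.65e-07). Fdps, the farnesyl diphosphate synthase, read 6.99, 7.29 and 7.93 against 9.41, 9.61 and 10.12, a rise of 2.31 ± 0.27. Hmgcs1, the HMG-CoA synthase, read 8.51, 8.61 and 8.88 against 10.64, 10.66 and 11.37, a rise of 2.23 ± 0.23. In all 3 genes the lowest IGF1 array was well above the highest vehicle array, and vehicle replicate 3 was the highest of its group. Cyp51, the sterol demethylase, rose by 1.64 ± 0.21, and Srebf2, which encodes SREBP2, by 1.56 ± 0.19. Insig1 (0.54 ± 0.28, adjusted p = 0.15), which retains SREBP in the endoplasmic reticulum, and Pmvk (0.31 ± 0.16, adjusted p = 0.142) were the members that did not pass.

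Of 10 genes of fatty acid synthesis and desaturation 3 rose, against 16.9% of all genes. These were the desaturases Fads2 (1.92 ± 0.26) and Fads1 (0.89 ± 0.14) and the elongase Elovl5 (1.16 ± 0.19), which act on polyunsaturated chains. Scd1, the stearoyl-CoA desaturase, spanned 11.76 to 15.59 over the vehicle arrays alone and did not pass (-1.41 ± 1.13, adjusted p = 0.373). The list median was 0.34, and -0.001 without vehicle replicate 1.

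Cell division genes formed a pair of lists. Of 29 measured genes of DNA replication and nucleotide supply 16 rose, against 16.9% of all genes, and 1 fell, with a median of 0.50 (22 rose and 1 fell after centring, 17 and 1 after quantile normalization). Of 26 mitosis genes 4 rose and 1 fell, with a median of 0.405, and 23 of the 26 had a positive difference. After centring, and likewise after quantile normalization, 9 of the 26 rose and 0 fell. Promoters of both lists were searched over the same 250 bases. The E2F letters TTTNNCGC were in 7 of the 25 replication promoters at hand and in 5.83% of all. The letters TTTGAA, of the cell cycle homology region (CHR) of genes expressed in G2 and M phase, were in 8 of the 22 mitosis promoters at hand and in 16.5% of all, and CCAAT was in 18 of the 22. Stretches of 120 bases are shown for the pair of mitosis genes with the largest rises, Mki67 at chr7:135716415-135716534, which runs from 155 to 36 bases before the start, and Top2a at chr11:99024190-99024309, which ends at the start. Both lie on the minus strand of GRCm38.p6, and capitals mark TTTGAA, or TTCAAA where it lies on the other strand.
Mki67: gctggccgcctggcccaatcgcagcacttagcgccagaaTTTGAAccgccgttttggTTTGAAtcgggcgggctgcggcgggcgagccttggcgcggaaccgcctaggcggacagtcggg
Top2a: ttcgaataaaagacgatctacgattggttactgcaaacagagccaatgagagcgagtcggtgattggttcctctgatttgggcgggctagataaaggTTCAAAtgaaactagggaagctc

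Among replication genes, Mcm3, a subunit of the replicative helicase, read 7.19, 7.20 and 7.03 under vehicle and 8.20, 8.59 and 8.38 after IGF1, a rise of 1.25 ± 0.17 (SE, adjusted p = 3.3e-06). Pcna, the sliding clamp, read 12.43, 12.23 and 12.78 against 13.56, 13.76 and 13.92, a rise of 1.26 ± 0.15. Mcm5, another helicase subunit, read 6.39, 6.41 and 6.55 against 7.08, 7.59 and 7.47, a rise of 0.93 ± 0.12. In each of these genes all IGF1 arrays exceeded all vehicle arrays. Rrm1, the large subunit of ribonucleotide reductase, rose by 1.08 ± 0.18, and Orc1, of the origin recognition complex, fell by 0.68 ± 0.09.

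Mitosis genes depended on the array. Mki67, the proliferation marker Ki-67, read 6.70, 6.99 and 6.26 under vehicle and 6.88, 9.18 and 8.31 after IGF1. IGF1 replicate 1 lay inside the vehicle range and the other two above it. The rise of 1.48 ± 0.48 (SE, adjusted p = 0.0219) lost its call without vehicle replicate 3 (adjusted p = 0.0862), IGF1 replicate 2 (0.95, adjusted p = 0.156) or IGF1 replicate 3 (adjusted p = 0.0682). Top2a, the topoisomerase that untangles replicated chromosomes, read 7.05, 7.44 and 6.86 against 7.16, 9.77 and 8.62, with the same order of arrays. Its rise of 1.40 ± 0.50 (SE, adjusted p = 0.0344) lost its call without vehicle replicate 1 (adjusted p = 0.081) or 3 (adjusted p = 0.102), or without IGF1 replicate 2 (0.78, adjusted p = 0.246) or 3 (adjusted p = 0.0855). Tpx2 (0.79) and Ccna2 (0.68) also rose. The 1 fall, Cenpa (-0.38, adjusted p = 0.0461), lost its call without any array but IGF1 replicate 2 (adjusted p = 0.0718 to 0.258) and under either scaling (adjusted p = 0.0777 with quantile normalization and 0.113 with centring).

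Over the list, each array was set against the mean of its own vehicle group. On IGF1 replicate 1 the median of the 26 mitosis genes was -0.15, with 1 member above the range of the vehicle arrays and 14 below it. On IGF1 replicate 2 it was 1.00, with 23 above, and on IGF1 replicate 3 it was 0.48, with 21 above. Without IGF1 replicate 1 the list median was 0.72 and 15 members rose, and without any 1 of the other five arrays 1 to 3 rose. Replication genes showed the same order to a smaller degree (0.24, 0.62 and 0.58), while the cholesterol list was even across the arrays (0.69, 0.75 and 0.84). What sets IGF1 replicate 1 apart was not tested.

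**Figure D3:**
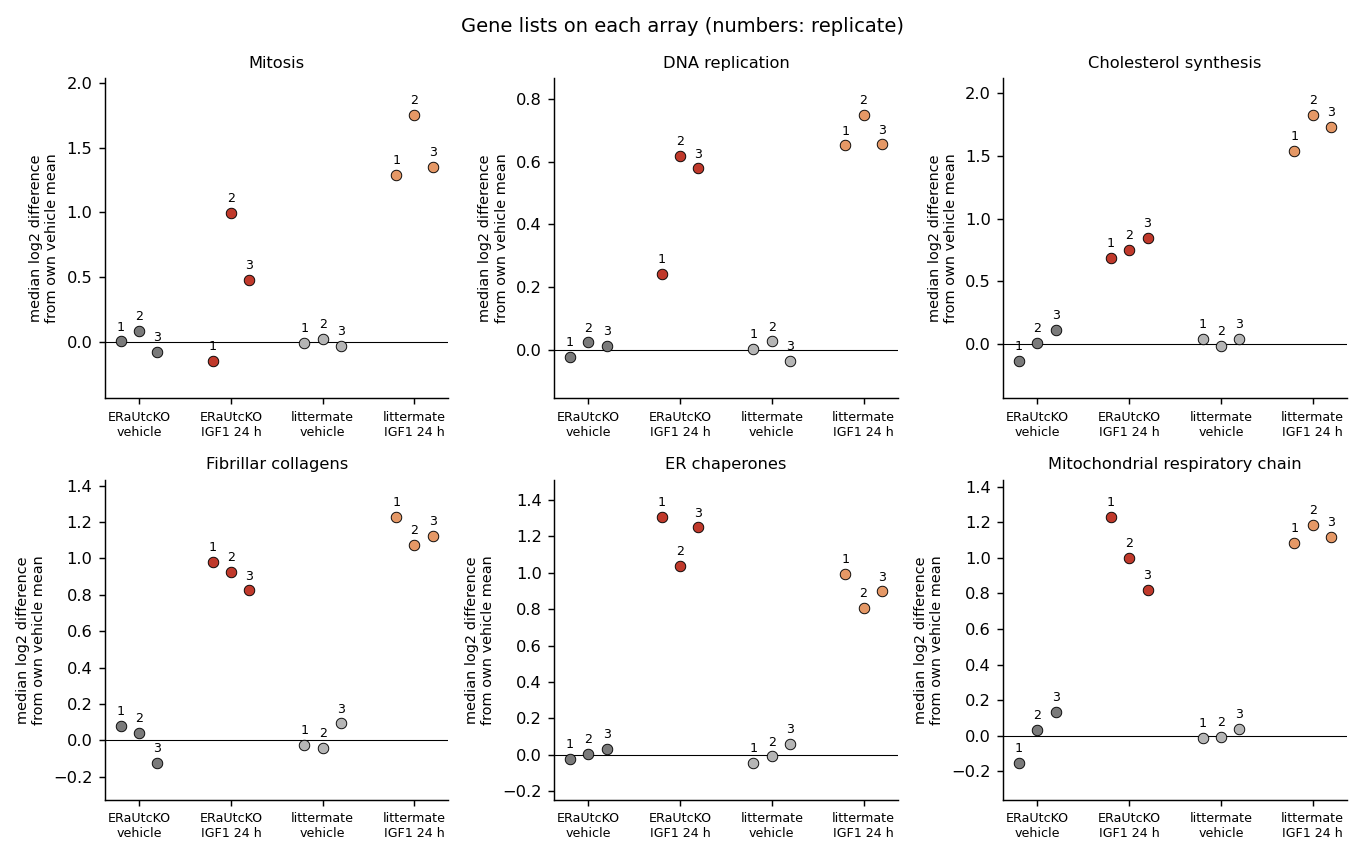
Median difference from the mean of the own vehicle group in log2 intensity (vertical axis) for 6 gene lists, with 1 number per array showing its replicate, in ERaUtcKO and littermate uterus. ERaUtcKO IGF1 24 h arrays spread from -0.15 to 1.00 for mitosis genes but from 0.69 to 0.84 for cholesterol synthesis genes, and littermate IGF1 arrays lie between 1.29 and 1.75 for mitosis genes.

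Regulators of the G1 phase moved both ways, 3 higher and 4 lower of 11, against 16.9% and 15.5% of all genes. Cdk4, the kinase that opens G1, rose by 1.36 ± 0.16, and Cdkn1a, the kinase inhibitor p21, by 1.51 ± 0.33. Cdkn1b, the inhibitor p27 and a FOXO target, fell by 0.85 ± 0.19. Cdk6 fell by 0.77 ± 0.18, and by 0.50 without IGF1 replicate 3.

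Matrix genes were among the most altered. Of 27 fibrillar collagens and other matrix proteins 19 rose and 1 fell, against 16.9% and 15.5% of all genes. Their median was 1.07. Col6a2, a chain of the beaded filament collagen VI, read 7.44 to 7.82 over the vehicle arrays and 9.94 to 10.12 over the IGF1 arrays, a rise of 2.35 ± 0.29. Col1a1, the main chain of fibrillar collagen I, read 9.22, 8.99 and 8.72 against 10.51, 10.81 and 11.11, a rise of 1.84 ± 0.35. Vcan and Col6a2 were the largest rises of the list, all their IGF1 arrays being above the vehicle arrays. Dcn, the small proteoglycan decorin that organises collagen fibrils, was the 1 that fell. It read 17.94, 17.88 and 17.88 under vehicle and 17.08, 16.90 and 16.54 after IGF1, a difference of -1.06 ± 0.11.

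Enzymes that finish collagen rose with it, 12 of 16 measured and none lower, against 16.9% and 15.5% of all genes. Their median was 0.77. Pcolce, which enhances procollagen cleavage, rose by 2.47 ± 0.15, Loxl1, a cross-linking oxidase, by 2.23 ± 0.25, and Serpinh1, the collagen chaperone HSP47, by 2.15. Matrix proteases and inhibitors were mixed, 6 higher and 4 lower of 19, against 16.9% and 15.5% of all genes. Mmp3, stromelysin-1, read 7.03, 7.06 and 6.86 under vehicle and 10.13, 9.12 and 9.08 after IGF1, a rise of 2.46 ± 0.24 (SE, adjusted p = 7.1e-08). Adamts12, a metalloprotease, fell by 0.74 ± 0.11. Mmp11, another, fell by 0.76, a call lost without vehicle replicate 1 (adjusted p = 0.0909) or IGF1 replicate 3 (adjusted p = 0.0842).

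The secretory and biosynthetic machinery was higher as well. Of 19 chaperones and sensors of the endoplasmic reticulum, 16 rose and none fell, against 16.9% and 15.5% of all genes, with a median of 1.18. Calr, the chaperone calreticulin, read 11.66, 11.84 and 11.91 under vehicle and 14.50, 14.25 and 14.30 after IGF1, a rise of 2.55 ± 0.17 (SE, 5.85-fold, adjusted p = 4.64e-10). Hspa5, the chaperone BiP, read 10.97, 10.94 and 10.88 against 12.86, 12.57 and 12.75, a rise of 1.80 ± 0.12. Both genes separated the groups by more than 1.5 log2 units. Dnajb11, a cochaperone of BiP, rose by 2.13 ± 0.16.

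The counts in this paragraph are read against the 16.9% of all genes that rose and the 15.5% that fell. ATF4, a transcription factor of the amino acid response, and its targets rose in 16 of 19 cases (median 0.82). They were led by Aldh18a1 of proline synthesis (1.72 ± 0.15) and Psat1 of serine synthesis (1.46 ± 0.16). Trib3 (-0.28, adjusted p = 0.0377) was the 1 that fell, and its call was lost without vehicle replicate 1 or 3 or without IGF1 replicate 1 or 3, or under either scaling (adjusted p = 0.0661 to 0.284). Ribosome biogenesis genes rose in 16 of 18 cases with none lower (median 0.87), for example Fbl, the nucleolar methyltransferase fibrillarin (1.68 ± 0.18), and Nop2 (1.23 ± 0.23). Heat-shock genes rose in 9 of 10 cases (median 0.77), among them Hsph1 (1.68 ± 0.18) and the mitochondrial chaperonin Hspd1 (1.27 ± 0.11).

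Energy metabolism was divided. Of 20 genes of the mitochondrial respiratory chain 17 rose and none fell, against 16.9% and 15.5% of all genes, with a median of 1.07. Cycs, cytochrome c, read 10.21, 10.32 and 11.30 under vehicle and 13.05, 12.09 and 13.72 after IGF1, a rise of 2.34 ± 0.35. Ndufa4, a subunit of cytochrome c oxidase, read 14.17, 14.85 and 14.98 against 16.77, 16.72 and 16.84, a rise of 2.11 ± 0.23. The groups were separate for both genes, although the arrays within a group spread more than for the chaperones. Glycolysis and HIF targets rose in 9 and fell in 3 of 19 cases, against 16.9% and 15.5% of all genes, with a median of 0.17. Pgk1 (2.09 ± 0.17) and Tpi1 (1.82 ± 0.21), both glycolytic enzymes, rose, and Pdk1, a kinase that inhibits pyruvate dehydrogenase, fell by 0.75 ± 0.09.

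Hormone response lists were read against the 32.4% of all genes that were called. Of 20 uterine genes that respond early to oestradiol 4 rose and 1 fell, with a median of 0.04, near that of all genes. The largest rises were those of Cdkn1a, given above, and of Sgk1, a kinase (0.56 ± 0.14). Sox4, a transcription factor, read 13.99, 13.50 and 13.72 under vehicle and 12.33, 12.92 and 12.43 after IGF1, a fall of 1.17 ± 0.20. Greb1, a direct target of ERα, differed by -0.06 (adjusted p = 0.772), Pgr, the progesterone receptor gene, by 0.32 (adjusted p = 0.173) and Ltf, lactoferrin, by -0.64 (adjusted p = 0.461). Of 15 secretory genes induced late by oestradiol, 3 rose, namely Lcn2 (1.18 ± 0.28), an iron-binding defence protein, Muc1 (0.98 ± 0.23), a mucin of the luminal surface, and Gpx2 (0.79). Prap1 read 9.38, 9.20 and 10.20 under vehicle and 7.05, 8.16 and 7.13 after IGF1, and fell by 2.14 ± 0.53 (SE, adjusted p = 0.0031).

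Steroid receptors and coregulators gave 2 rises and 3 falls of 13, with a median of -0.05 that was 0.03 after centring, where 4 rose and 3 fell, and -0.13 after quantile normalization, where 1 rose and 3 fell. Fkbp4, a cochaperone that matures steroid receptors, rose by 1.19 ± 0.18, and Nr3c2, the mineralocorticoid receptor, fell by 1.01 ± 0.10. Esr1 and Ncoa2 (-0.49), a coactivator, were the other falls. Of 16 progesterone-responsive genes and stromal regulators 5 rose and 1 fell (8 and 0 after centring, 7 and 1 after quantile normalization). The rises included Hoxa11 (1.56 ± 0.28), a homeobox factor of the stroma, and Gli1 (1.07 ± 0.25), a hedgehog effector. Cyp26a1 fell by 0.53, a call lost without vehicle replicate 2 or 3 or IGF1 replicate 1, or after centring (adjusted p = 0.0511 to 0.0728).

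The same share of all genes is the background for lists of other signals. Among TGF-beta family ligands and inhibitors (3 rose and 3 fell of 19), Gdf10, a ligand also named BMP3b, read 11.87, 11.97 and 12.20 under vehicle and 14.21, 14.05 and 14.50 after IGF1, a rise of 2.24 ± 0.23 (SE, adjusted p = 1.07e-07). WNT ligands, R-spondins and antagonists gave 3 rises and 3 falls of 27, and 3 calls in all without vehicle replicate 1. Sfrp4, a secreted antagonist, rose by 0.86. Rspo3, an R-spondin, fell by 0.74, and lost its call without vehicle replicate 1 (adjusted p = 0.0848) or IGF1 replicate 3 (adjusted p = 0.138). Of 15 angiogenic genes 5 rose and 1 fell, with 3 calls in all without vehicle replicate 3 or without IGF1 replicate 3, among them Apln, apelin (1.34 ± 0.30), and Vegfd (1.20 ± 0.26).

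Circadian clock genes were lower in 7 of 15 cases and higher in 1, against 15.5% and 16.9% of all genes (median -0.41). Nr1d1, the repressor REV-ERBα, read 13.43, 14.13 and 13.87 under vehicle and 12.91, 12.96 and 11.83 after IGF1, a fall of 1.24 ± 0.29. Hlf, an output factor of the clock, fell by 1.23 ± 0.16. Clock was the 1 that rose (0.39, adjusted p = 0.0116), a call lost without vehicle replicate 2 or 3 or without IGF1 replicate 1 or 3, or after quantile normalization (adjusted p = 0.0529 to 0.227). Glucocorticoid-responsive genes gave 5 rises and 3 falls of 16, against 16.9% and 15.5% of all genes. The labels give no time of day for the collection of tissue.

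Of 22 chemokine genes 7 rose and 3 fell (16.9% and 15.5% of all genes), 6 in all without IGF1 replicate 3. Ccl7, which attracts monocytes, read 6.28, 6.51 and 6.70 under vehicle and 8.43, 8.91 and 9.89 after IGF1, a rise of 2.59 ± 0.35. Ccl8 rose by 1.87 ± 0.46, and Ccl5, made by T cells, fell by 1.02 ± 0.21. Of 18 interferon-stimulated genes 4 rose, led by Stat2 (1.00 ± 0.17), and Ifit2 fell by 0.97 ± 0.17, against the same shares of all genes. That list had 2 calls without vehicle replicate 1 or without IGF1 replicate 2, and 8 after centring.

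Markers of the cell types a whole uterus can hold moved unevenly. Their counts are read against the 16.9% of all genes that rose and the 15.5% that fell. Of 14 smooth muscle genes 11 rose and none fell (median 0.92). Actg2, smooth muscle gamma actin, read 13.12, 13.58 and 13.00 under vehicle and 15.65, 15.64 and 15.11 after IGF1, a rise of 2.24 ± 0.24, and Des, desmin, rose by 2.03 ± 0.26. Of 12 stromal markers 9 rose and 1, Dcn, fell (median 1.05), with Vcan and Hoxa11, both named above, the largest rises. Of 16 epithelial markers 7 rose, for example Krt19 (1.19 ± 0.22) and Krt8 (1.16), and 3 rose without vehicle replicate 1 or IGF1 replicate 3. After quantile normalization 5 of the 16 rose and 3 fell. None of 9 gland markers was called.

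Mesothelial markers rose in 4 of 7 cases, with Upk3b at 1.32 ± 0.33 and Lrrn4 at 1.29. Macrophage markers rose in 6 of 14 cases, with Mrc1 (1.74 ± 0.27) and Lyve1 (1.25 ± 0.24) the largest, and endothelial markers in 3 of 12 with 2 lower, led by Eng (1.51 ± 0.10), with 3 calls in all without vehicle replicate 1 or IGF1 replicate 1. Hdc, the histidine decarboxylase, read 8.76, 9.32 and 9.59 under vehicle and 11.82, 11.57 and 12.02 after IGF1 and rose by 2.58 ± 0.29, the only rise among 8 mast cell markers. Its IGF1 arrays were all above its vehicle arrays. The neutrophil gene S100a8 read 9.89, 8.92 and 8.79 under vehicle and 10.06, 11.53 and 14.18 after IGF1. The arrays after IGF1 spread over 4 log2 units, and the difference of 2.72 did not pass (adjusted p = 0.141). Of 10 neutrophil markers 1 rose, against 16.9% of all genes, and 3 without IGF1 replicate 1. The part of such cells in the chemokine and interferon values was not tested.

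The littermates, which share no array with the knockout comparison, allowed its genes to be looked up in other mice. There 13117 genes were called (43.5%, of which 5069 or 16.8% were higher and 8048 or 26.7% lower). Their median over all genes was -0.14 as deposited and -0.01 after centring, which raised the share of higher calls from 38.6% to 66.5% (50.6% after quantile normalization). Of the 9765 genes called in the knockout, 97.3% had the same sign in littermates, against 80% of all genes. Called in both with the same sign were 7211 genes, 73.8% of the knockout's calls and 55% of the littermates', and 12 were called with opposite signs. Called at 2-fold or more with the same sign in both were 1036 genes, 60.2% of the knockout's such genes and 70.7% of the littermates', which made up 5.71% and 4.86% of all genes. Igfbp5 rose by 4.33 in littermates, Lgals1 by 3.29 and Vcan by 2.58. Igf1r and Irs2 fell there, with differences of -1.25 and -2.69.

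Where the responses differed was tested as an interaction. It called 15 of 30142 genes (0.0498%), 4 higher (0.0133%) and 11 lower (0.0365%) in the knockout relative to littermates, and 3457 genes had an unadjusted p under 0.05. The share of higher calls was 26.7% as deposited, 6.25% after centring and 10% after quantile normalization. Without IGF1 replicate 2 of the knockout the count was 133, and without its vehicle replicate 2 or 3 it was 6 or 3. In an alternative chosen after seeing the data, it was 163 without littermate vehicle replicate 3 and 4 or 5 without any other 1 of the 6 littermate arrays.

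Hpgds gave the largest of these differences. In littermates it read 10.34, 10.12 and 10.33 under vehicle and 8.28, 8.10 and 8.46 after IGF1, a fall of 1.98. The knockout's fall was the larger, and the responses differed by -2.71 ± 0.41 (SE, adjusted p = 0.00851). Under vehicle the knockout was already 2.08 ± 0.29 higher than littermates (adjusted p = 0.000122), and after IGF1 its arrays (7.30 to 7.95) lay below those of littermates. Scpep1, a serine carboxypeptidase, moved in opposite directions. It read 12.01, 12.03 and 12.25 in the knockout under vehicle and 11.56, 11.66 and 11.22 after IGF1, against 11.26, 11.06 and 11.45 and then 11.96, 12.04 and 12.17 in littermates (difference -1.42 ± 0.20, adjusted p = 0.00851).

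Steps of cholesterol synthesis made up 4 of the 11 lower interaction calls. Sqle, the squalene epoxidase, read 7.55, 7.43 and 7.80 in the knockout under vehicle and 9.47, 9.29 and 9.95 after IGF1, a rise of 1.97 ± 0.17. In littermates it read 7.78, 7.76 and 7.61 and then 11.02, 11.07 and 11.15, a rise of 3.37. The genotypes overlapped under vehicle and were separate after IGF1, and the responses differed by -1.39 ± 0.25 (SE, adjusted p = 0.0334). Nsdhl, a sterol dehydrogenase, rose by 0.65 ± 0.16 in the knockout and by 2.03 in littermates (difference -1.38 ± 0.23, adjusted p = 0.0299). Fdft1, the squalene synthase, rose by 1.80 in littermates and by 0.46 ± 0.17 in the knockout (difference -1.35 ± 0.24, adjusted p = 0.0334). The knockout call of Fdft1 was lost without vehicle replicate 1 or 2 or without IGF1 replicate 1 or 3, or after quantile normalization (adjusted p = 0.0657 to 0.161). Lss, the lanosterol synthase, rose by 0.41 ± 0.10 in the knockout and by 1.18 in littermates (difference -0.78 ± 0.14, adjusted p = 0.0334).

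All 18 cholesterol genes rose in littermates, with a median of 1.70 against 0.70 in the knockout. In wild-type littermates of the separate Ex3aERKO experiment 8 of the 18 rose, with a median of 0.67. The number of the 18 called in the interaction was 0 without knockout vehicle replicate 2 or 3, 1 without knockout IGF1 replicate 3 and 2 to 5 without another knockout array. It was 6 without littermate vehicle replicate 3 and 0 without any other 1 of the 6 littermate arrays, while the median interaction stayed between -0.93 and -0.73 over all these fits. Of the other interaction genes, Aldh1a3, which makes retinoic acid, fell by 1.53 in the knockout (interaction -1.21, adjusted p = 0.00851) and Pde6h by 1.46 (interaction -1.34, adjusted p = 0.00851). Krtdap, a keratinocyte protein, rose by 0.89 ± 0.17 in the knockout (interaction 1.29, adjusted p = 0.0496), and Nmur1, the neuromedin U receptor, by 0.52 ± 0.15 (interaction 1.19, adjusted p = 0.0334). The knockout call of Nmur1 was lost without IGF1 replicate 1 (adjusted p = 0.0617). Brip1, a DNA repair helicase, differed by 0.09 in the knockout (interaction -1.03, adjusted p = 0.0334). The remaining 4 calls were predicted genes.

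Mitosis genes were next compared between the genotypes before and after IGF1. Under vehicle 0 of the 26 were called between knockout and littermates (4.17% of all genes were), with a median of -0.25. Even so, 24 of the 26 had a lower mean in the knockout. After IGF1, 23 of 26 were lower in the knockout (2.02% of all genes were lower and 3.37% called), with a median of -1.36. Mki67 read 7.81, 7.63 and 7.62 in littermates under vehicle, each above every knockout vehicle array. After IGF1 it read 10.83, 10.98 and 10.48 in littermates, a rise of 3.08. The knockout was then lower by 2.64 (adjusted p = 0.00175), a gap that includes the one under vehicle. Cdk1, the mitotic kinase, was lower by 1.35 (adjusted p = 0.000508). In an alternative chosen after seeing the data, 18 of the 26 were lower without knockout IGF1 replicate 1, with a median of -1.05, and 21 to 24 without any other 1 of the IGF1 arrays of both genotypes. The difference between the responses themselves had a median of -1.03. None of the 26 was called in the interaction (0.0498% of all genes were), including Mki67 (-1.60, adjusted p = 0.383), while 8 were without knockout IGF1 replicate 2.

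Replication genes were lower in the knockout after IGF1 in 12 of 29 cases (median -0.345), and in 2 without knockout IGF1 replicate 1, 3 without littermate IGF1 replicate 2, 6 without littermate IGF1 replicate 3 and 7 without littermate IGF1 replicate 1. Cholesterol genes were lower in 14 of 18 cases (median -0.79), and in 11 to 13 when any 1 of the 6 IGF1 arrays of both genotypes was left out. Under vehicle 2 of the replication genes and 0 of the cholesterol genes were lower in the knockout, against 2.16% of all genes. The comparison after IGF1 and the interaction use the same IGF1 arrays, so their values are given side by side only. The matrix list had a median response of 1.07 in the knockout and 1.08 in littermates, and the respiratory chain one of 1.07 and 1.09. No member of either list was called in the interaction. As it called 0.0498% of all genes, this does not show that the responses were equal.

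**Figure D4:**
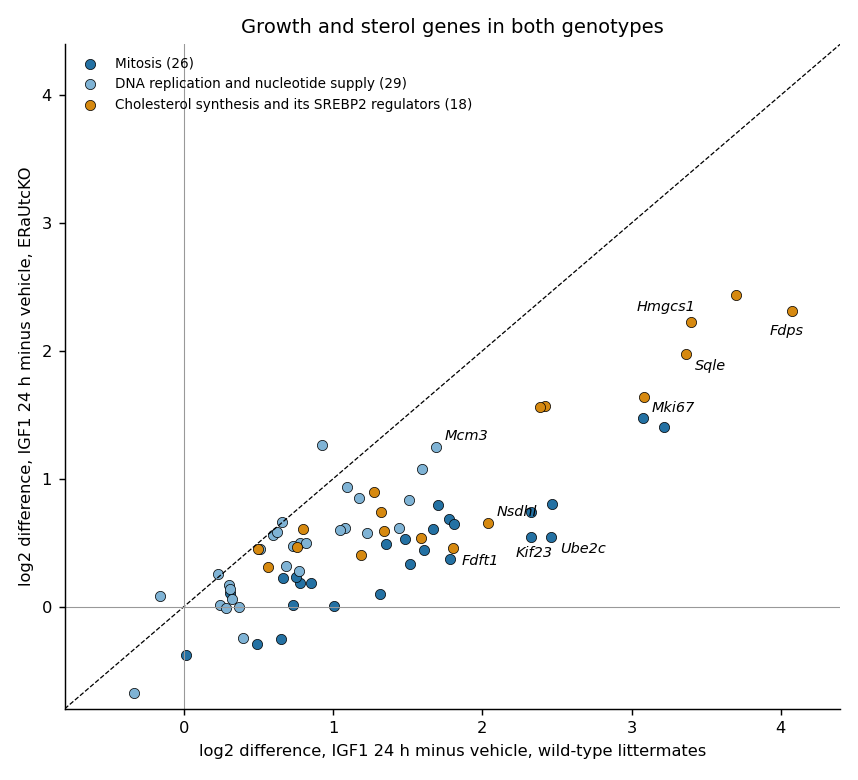
Difference in log2 intensity, IGF1 24 h minus vehicle, in littermates (horizontal axis) and ERaUtcKO (vertical axis) for 26 mitosis, 29 replication and 18 cholesterol synthesis genes, 1 point per gene, with a dashed line of equal response. Most mitosis and cholesterol genes lie below the line, with medians of 1.5 and 1.70 in littermates against 0.405 and 0.70 in ERaUtcKO.

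The state at 24 h was next set against that at 2 h in the same genotype. Between them 9542 genes differed (31.7%), 5599 higher at 24 h (18.6%) and 3943 lower (13.1%). At 2 h itself 8824 genes were called against vehicle (29.3%, with 13.1% higher and 16.2% lower). The 2 h and 24 h comparisons share the vehicle arrays, and the vehicle was taken at 24 h only.

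Immediate-early factors and ERK feedback genes were high early. Of 21 immediate-early factors 16 rose at 2 h (median 1.33), and the same number were lower at 24 h than at 2 h. Egr1, a zinc finger factor, read 12.10, 12.17 and 12.71 at 2 h and was lower at 24 h by 4.70. Thbs1, the matrix protein thrombospondin-1, read 15.11 ± 0.13 (SD, n = 3) at 2 h, a rise of 5.14, and was lower at 24 h by 5.63. Its values at 24 h (9.46, 9.07 and 9.91) overlapped those of vehicle (10.22, 9.96 and 9.72). Spry4 rose by 4.66 at 2 h and Dusp6 by 3.28. Further genes lower at 24 h were Tnfrsf12a (-4.45), the TWEAK receptor, and the bitter taste receptor probe sets Tas2r143 (-5.09) and Tas2r135 (-4.94).

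Other groups were high late. Respiratory chain genes had a median of -0.06 at 2 h with 2 of 20 higher and 1 lower, and at 24 h 18 of the 20 were higher than at 2 h. Ndufa4 differed from vehicle by -0.13 at 2 h and by 2.11 at 24 h. Replication genes (17 of 29 higher at 24 h than at 2 h) and stromal markers (8 of 12) were higher late too. Igfbp5 was 3.48 higher at 24 h than at 2 h, Tnnt2 3.49, Mtln, a mitochondrial micropeptide gene, 3.10, and Atp5g2, a subunit of ATP synthase, 2.85.

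Between these were lists high at both times. ER chaperones rose in 16 of 19 cases at 2 h (median 0.83), ribosome biogenesis genes in 16 of 18 (0.79) and heat-shock genes in 9 of 10 (1.10). ATF4 targets had a median of 1.945 at 2 h, and 13 of 19 were lower at 24 h than at 2 h. FOXO targets fell in 16 of 26 cases at 2 h. Fbxo32 read 8.38, 8.76 and 9.30 at 2 h, a fall of 5.58 from vehicle, and was 3.53 higher at 24 h than at 2 h while still below vehicle. Irs2 was lower by 2.41 at 2 h and by 2.40 at 24 h. Cdkn1a rose by 3.85 at 2 h and Cdkn1b fell by 2.00.

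**Figure D5:**
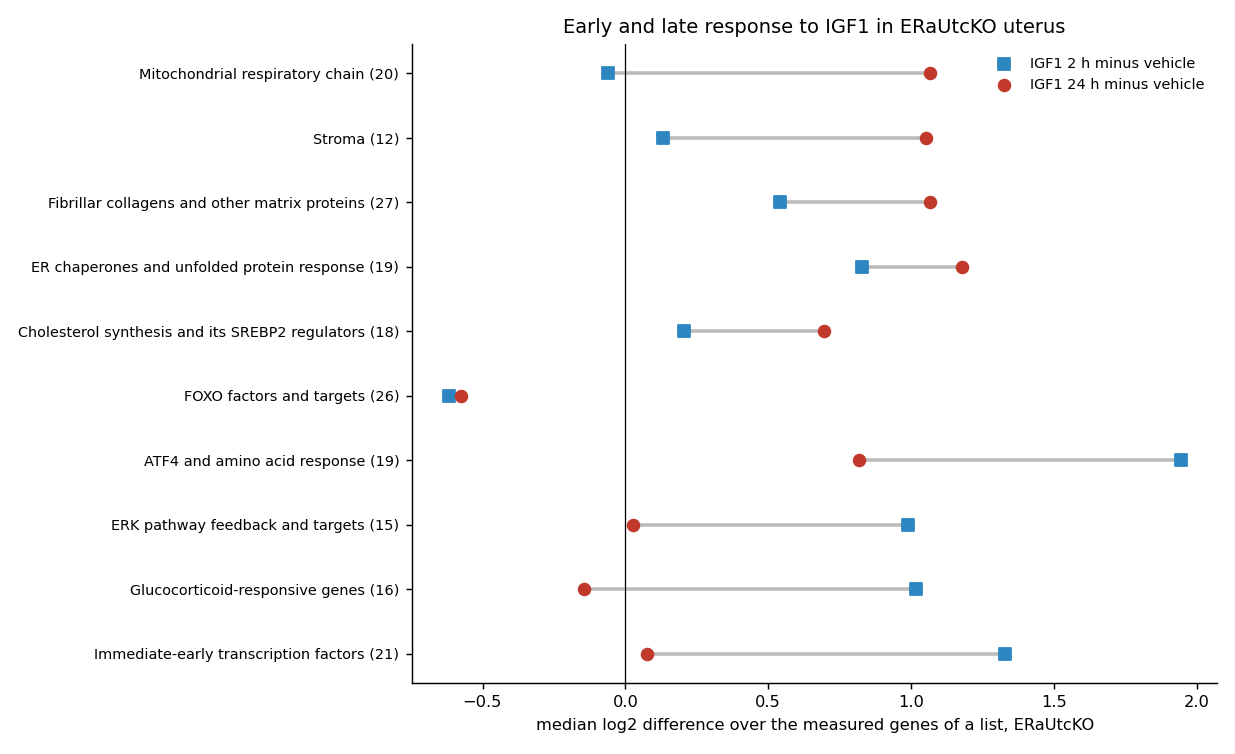
Median difference from vehicle in log2 intensity (horizontal axis) of 10 gene lists in ERaUtcKO uterus 2 h (squares) and 24 h (circles) after IGF1. Immediate-early and ERK feedback genes are high at 2 h (1.33 and 0.99) and near 0 at 24 h, respiratory chain genes are near 0 at 2 h and at 1.07 at 24 h, and FOXO targets are low at both times (-0.62 and -0.57).

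E2 gave a control for agent and time in the same knockout. Against vehicle, 0 of 30142 genes were called 24 h after E2 by limma, with 1151 at an unadjusted p under 0.05. IGF1 at 24 h differed from E2 at 24 h for 9136 genes (30.3%, with 16.4% higher and 13.9% lower after IGF1). This comparison shares the IGF1 arrays with the first one and uses other controls. Higher after IGF1 than after E2 were Igfbp5 by 4.07, Ppp1r14b by 3.89, Slc25a5 by 3.40, Lgals1 by 3.35 and Kpna2 by 3.29. Lower were Hpgds (-4.71), Inmt (-4.16), Speer4e (-3.50), Speer4c (-3.19) and Lepr (-3.08). Against E2, 16 of 19 ER chaperones, 17 of 20 respiratory chain genes, 14 of 18 cholesterol genes and 7 of 26 mitosis genes were higher after IGF1, and 16 of 26 FOXO targets were lower. Alb read 9.66, 9.33 and 9.77 after E2, within 1 log2 unit of the IGF1 arrays on average, and no liver transcript was called between the hormones.

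In the Ex3aERKO line, which lacks Esr1 in every cell, IGF1 at 24 h called 5598 genes (18.6%, with 11.7% higher and 6.86% lower) in a fit of its own with 2 vehicle and 3 IGF1 arrays. The share of higher calls was 63.1% as deposited and 48.8% after quantile normalization. Of the genes called in ERaUtcKO, 88.7% had the same sign there, against 69.7% of all genes. Called in both with the same sign were 4016, 41.1% of the ERaUtcKO calls and 71.7% of the Ex3aERKO calls, and 11 were called with opposite signs. At 2-fold or more the shared genes numbered 909, 52.8% of those of ERaUtcKO and 51.9% of those of Ex3aERKO (5.81% of all genes). Hpgds fell there by 5.89, Inmt by 5.36, Igf1r by 1.80 and Lepr by 3.81, while Igfbp5 rose by 3.89, Lgals1 by 3.67 and Vcan by 3.60.

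Some values of the null line are given beside those of ERaUtcKO, and the difference between the lines was not tested. Tnnt2 differed by 0.65 (adjusted p = 0.596) against 3.61 in ERaUtcKO. Of 14 smooth muscle genes 1 rose (median 0.19) against 11 in ERaUtcKO. In the null line's wild-type littermates 2 of the 14 rose (median 0.51), and 1618 of 30142 genes were called in all. These counts stand against unlike backgrounds, as 11.7% of all genes rose in the null line and 1059 of 30142 in its littermates. Whether the low count is particular to the null genotype was not tested. Mitosis genes rose in 14 of 26 cases (median 0.905), Mki67 by 2.47, and cholesterol genes in 10 of 18 (median 0.73). In the null line's littermates 18 mitosis genes (median 1.32) and 8 cholesterol genes (median 0.67) rose. Matrix proteins rose in the null line in 13 of 27 cases with 3 lower, and respiratory chain genes in 15 of 20 with 1 lower. Of 26 FOXO targets 12 fell there.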

How the data were processed

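The deposited values are log2 intensities, 1 per probe set and array, in the authors' table of all 68 arrays. The labels name Affymetrix arrays of total RNA. The normalization and its software are not given in the sources used here, and arrays have no read depth, so that their number limits the precision. Of 72688 probe sets, 30604 had 1 gene symbol in the platform annotation, 2146 had several and were not used, and 39938 were outside the annotation. For the 355 genes with several probe sets the one with the highest mean was kept, giving 30142 genes. Symbols were updated through RefSeq.

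Differences were tested with lmFit and eBayes of limma 3.58.1 (R 4.3.3), with 1 mean per group over the 29 arrays of the ERaUtcKO experiment (19 residual degrees of freedom). Ex3aERKO was fitted apart on its own arrays (15 residual degrees of freedom). P-values are two-sided. The fits were tested on simulated data. The 50 gene lists and the genes compared were chosen with earlier results of these data known. Named genes are the 15 largest rises and 15 largest falls of protein-coding genes whose groups did not overlap, passing over predicted genes, genes of the ERα and IGF1 pathways, up to 4 called members a list, and the 5 largest of each sign in the interaction and in the contrasts with 2 h and with E2. Alternatives were centring, quantile normalization, a filter on low values, other array sets, array weights, trended and robust moderation, the mean of probe sets, the replicate number as a block, and leaving out each array. The replicate numbers were not used to pair samples in the main fit. The deviations of same-numbered arrays correlated at 0.054, 0.166 and 0.22. Pairs with different numbers were not set beside these, so whether the numbers pair samples was not tested.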

Additional observations from a re-analysis of the deposited data

Results flagged for a closer look

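Of the 15 genes whose response to IGF1 at 24 h differed between ERaUtcKO and littermate uterus in the interaction test of limma, 7 are given here, the 5 of largest negative and the 2 of positive difference among named protein-coding genes. The others stand in the text above. The count of 15 moved with single arrays, from 3 to 163. The response of Hpgds differed by -2.71 ± 0.41 (SE, adjusted p = 0.00851), with a fall of 4.70 in the knockout and of 1.98 in littermates. Scpep1 differed by -1.42 ± 0.20 (adjusted p = 0.00851), and all knockout arrays after IGF1 lay below their vehicle arrays while all littermate arrays lay above theirs.

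Among cholesterol synthesis genes, Sqle differed by -1.39 ± 0.25 (adjusted p = 0.0334), Nsdhl by -1.38 ± 0.23 (adjusted p = 0.0299) and Fdft1 by -1.35 ± 0.24 (adjusted p = 0.0334), each rising less in the knockout. Krtdap differed by 1.29 ± 0.24 (adjusted p = 0.0496) and Nmur1 by 1.19 ± 0.21 (adjusted p = 0.0334), with differences of 0.89 and 0.52 in the knockout and of -0.40 and -0.68 in littermates.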

How the results depend on the processing

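The count of genes called between IGF1 24 h and vehicle in ERaUtcKO (9765) ran from 8194 to 9328 when 1 of its 6 arrays was left out. It was 7679 with only those 6 arrays fitted, 9048 with the 15 ERaUtcKO arrays, 9487 after centring, 9478 after quantile normalization and 9292 of the 19046 genes left by a filter on low values. The interaction count (15) was 27 with array weights and ran from 3 to 133 with 1 of the 6 ERaUtcKO arrays left out and from 4 to 163 with 1 of the 6 littermate arrays left out, the latter chosen after seeing the data. It could not be fitted on ERaUtcKO arrays alone, which hold no littermates. The vehicle comparison of the genotypes (1258) ran from 627 to 2083 with 1 of its own 6 arrays left out. With the replicate number as a block, the count was 9561 for IGF1 24 h against vehicle and 16 for the interaction, and no count of calls moved by over 1.5 times. Whether samples with the same number are paired was not tested.

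Over all alternatives, 2440 values of named genes and list members kept their side of the threshold, 144 lost their call, 5 gained one, and no called value changed sign. Of 750 list medians 36, in 18 lists, had another sign than the reported one or were 0. The largest reported one was that of fatty acid synthesis (0.342), which ran from -0.001 (without vehicle replicate 1) to 0.486 with 1 array left out. The interferon list (0.175) gave -0.03 without IGF1 replicate 2. Calls of liver transcripts, of Mki67 and Top2a and of the interaction moved with single arrays, as given above.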

Other observations

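Gene families grouped by the start of their symbols, a grouping chosen after seeing the data over families of at least 15 members, added groups not described above. Of 47 Mrpl genes, the large subunit proteins of the mitochondrial ribosome, 38 rose and 1 fell in ERaUtcKO 24 h after IGF1 (16.9% and 15.5% of all genes), with a median of 0.71, of 0.62 in littermates and of -0.06 at 2 h. Mrpl11 rose most, by 1.44. Of 28 Mrps genes, of the small subunit, 24 rose and none fell (median 0.59, and -0.02 at 2 h). RNA polymerase subunits with Polr symbols rose in 18 of 25 cases with 1 lower (median 0.54), led by Polr2f at 2.30. Translation initiation factors with Eif symbols rose in 28 of 47 cases with 3 lower (median 0.465, and 0.39 at 2 h), led by Eif3b at 2.03.

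Ces, Cyp and Klf genes had medians below 0. Of 18 carboxylesterase genes with Ces symbols 5 fell, against 15.5% of all genes, and none rose (median -0.33). Of 89 cytochrome P450 genes 14 fell, about the same share as of all genes, and 3 rose. Their median was -0.265, or -0.18 after centring and -0.17 after quantile normalization. Of 17 Krüppel-like factors 5 fell and none rose (median -0.21). Of 359 zinc finger genes with Zfp symbols 113 fell and 23 rose (75 and 34 after centring), with a median of -0.12. Of 16 Abca transporter genes 7 fell (5 after centring), of 15 Akap anchoring protein genes 7 (5 after centring) and of 15 Dennd genes 7 (4 after centring), with medians of -0.13, -0.16 and -0.145. Members of such families can cross-hybridise, so single values within them are uncertain. The signs of the ERaUtcKO 24 h medians above held under centring and quantile normalization, which were not tried for the family medians of littermates or at 2 h. By kind of transcript, changes of at least 2-fold were mostly rises among 19043 protein-coding genes (791 higher and 278 lower) and mostly falls among 3169 long non-coding RNA genes (6 higher and 64 lower).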
